A study of Mus musculus with 11 samples.

Results

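GABA receptor subunits of mouse dorsal root ganglia (DRGs) were examined through 6 genes of the deposited table: *Gabbr1* and *Gabbr2*, which encode the subunits of the GABA-B receptor, and *Gabra2*, *Gabra3*, *Gabrb2* and *Gabrg1*, which encode α, β and γ subunits of GABA-A receptors. These 6 genes were chosen by symbol from the 36670 genes of the table, and each symbol had a single row. GABA-A receptors are pentameric chloride channels, and their α, β and γ subunits set where the receptor sits and how it responds to GABA and to drugs such as benzodiazepines. GABA-B receptors are G protein-coupled receptors that work as a pair of unlike subunits, in which GABBR1 binds GABA and GABBR2 couples to the Gi/o proteins. Primary sensory neurons keep a high internal chloride concentration, so that GABA depolarizes their cell bodies and terminals through GABA-A receptors, while GABA-B receptors lower calcium entry and transmitter release at their central terminals.

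The libraries came from DRGs of 11 mice, 1 library per mouse, in 4 groups: 3 WT controls, 3 WT mice given paclitaxel (PTX), 3 *Gpr37l1* KO controls and 2 *Gpr37l1* KO mice given PTX. *Gpr37l1* encodes an orphan receptor of satellite glial cells, the glia that wrap sensory neurons, and PTX is a chemotherapy drug that causes painful neuropathy. Both PTX groups were sampled 4 weeks after the drug. The study's results describe RNA-Seq of DRGs from 3 naive mice without naming the libraries and without mention of KO controls. The labels mark the WT and KO controls alike with the letter V. The strain name of the KO line joins B6 and 129S5, the study's methods give the colony a C57BL/6 background with littermates, and the age of the sequenced mice is not given in the sources used here. By the labels, the mouse numbered 3 was female in each group and the rest were male, which ties sex to that number. The labels do not say how many ganglia or which spinal levels went into a library, and in whole ganglia fewer cells of a type and less RNA per cell cannot be told apart.

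*Gpr37l1* itself matched the genotype labels. It was at 35.7, 34.88 and 27.57 FPKM in the WT controls, at 14.56, 31.73 and 25.03 FPKM in the WT PTX mice, at 0.21, 0.25 and 0.29 FPKM among the KO controls and, in the KO PTX mice, at 0.6 and 1.15 FPKM. FPKM is a fragment count scaled by transcript length and by library size, so it can be compared between genes. Total counts ran from 52735648 to 80348732 per library. All 14 sensory neuron markers and all 8 satellite glial markers passed the filter on low values, and the neuronal markers summed to 3644 to 4795 FPKM per library. The 4 libraries with totals under 60000000 counts were WT control 1, WT PTX 3 and both KO PTX libraries. In these, 7 of 12 spinal cord marker genes were higher than in all of the other 7 libraries. The share of all tested genes that did so is not given here, so this count has no background to be read against.

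The 6 genes covered a wide range of levels and kept nearly the same order in every mouse. Over the 11 libraries the mean was 64.1 FPKM for *Gabbr1*, 25.7 FPKM for *Gabbr2*, 6.28 FPKM for *Gabra2*, 4.18 FPKM for *Gabra3*, 2.9 FPKM for *Gabrg1* and 0.22 FPKM for *Gabrb2*. Each gene was above the next one in 11 of 11 libraries, with the exception of *Gabra2* and *Gabra3*, where *Gabra2* was higher in 7 libraries and *Gabra3* in 4. *Gabrb2* was below the minimum mean of 0.5 FPKM for testing, so that 5 of the 6 genes were tested among 15087 genes. In GENCODE M21, *Gabbr1* has up to 23 exons in a transcript, *Gabbr2* up to 19, *Gabrg1* up to 9 and the other 3 genes up to 10. *Gabra3* overlaps 4 annotated small RNA genes or pseudogenes, and the other 5 genes overlap no annotated gene.

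**Figure D1:**
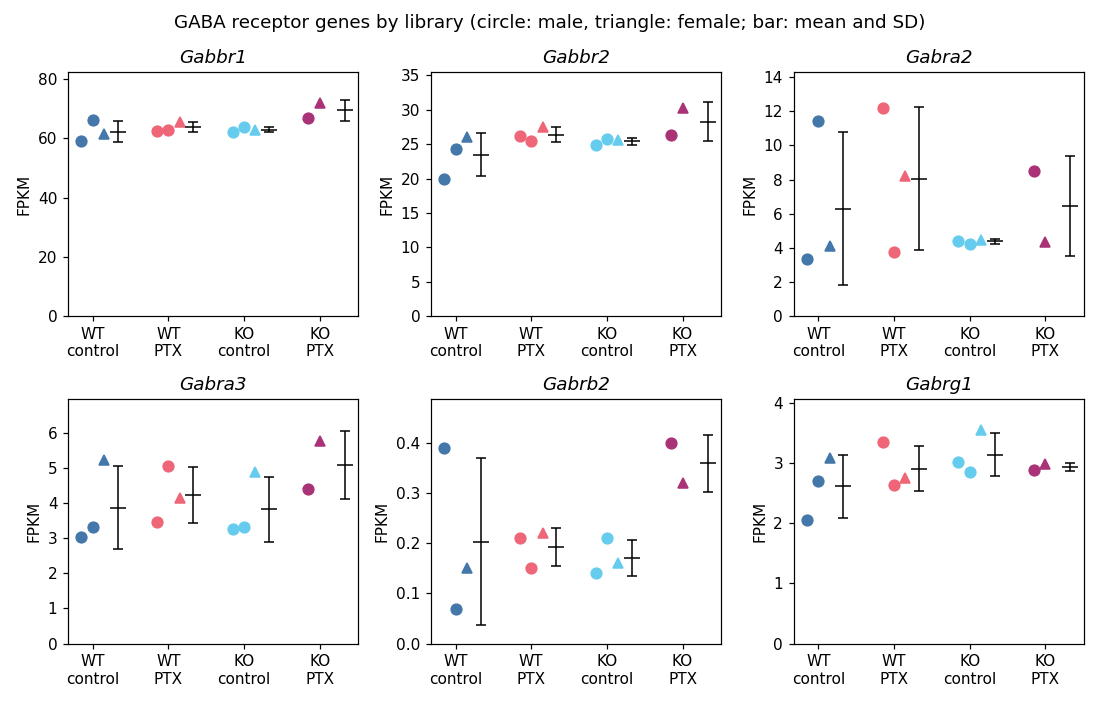
Level of each of the 6 receptor genes in FPKM on the vertical axis, by group on the horizontal axis, with 1 point per library (circles male, triangles female) and the group mean with its SD in black. *Gabbr1* stays between 58.99 and 71.8 FPKM, whereas *Gabra2* lies either between 3.37 and 4.49 FPKM or between 8.19 and 12.17 FPKM.

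The GABA-B subunits were the most abundant and the steadiest. *Gabbr1* (ENSMUSG00000024462), on the plus strand of chromosome 17 from 37045966 to 37075067 (mm10), was at 58.99, 66.16 and 61.58 FPKM in the WT controls and at 62.49, 62.83 and 65.59 FPKM in the WT PTX mice. In the KO controls it was at 62.11, 63.76 and 62.83 FPKM, and in the KO PTX mice at 66.91 and 71.8 FPKM. Both KO PTX values lay above every other library. Its coefficient of variation over the 11 libraries was 5.31%, and only 6.15% of the tested genes had a smaller one, against a median of 11.3% for all tested genes.

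*Gabbr2* (ENSMUSG00000039809), on the minus strand of chromosome 4 from 46662305 to 46991873, was at 20.01, 24.34 and 26.04 FPKM in the WT controls and at 26.17, 25.44 and 27.54 FPKM in the WT PTX mice. The KO controls held 24.86, 25.79 and 25.62 FPKM and the KO PTX mice 26.26 and 30.3 FPKM. WT control 1 had the lowest level and KO PTX 3 the highest, and the WT controls overlapped with the WT PTX mice. Within libraries *Gabbr1* exceeded *Gabbr2* by 2.37-fold to 2.95-fold. The ratio was 2.68 ± 0.29 (SD, n = 3) in the WT controls, 2.41 ± 0.05 (SD, n = 3) in the WT PTX mice, 2.47 ± 0.02 (SD, n = 3) in the KO controls and 2.46 ± 0.13 (SD, n = 2) in the KO PTX mice.

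For the ratio of the GABA-B subunits, the difference between PTX and control mice was within the spread between mice. The difference in the log2 ratio was -0.08 (exact two-sided permutation test within genotypes, p = 0.215, 200 arrangements), and without WT control 3 it was -0.12 (exact permutation, p = 0.04). Between KO and WT mice the log2 ratio differed by -0.04 (exact two-sided permutation test within treatments, p = 0.48). The smallest p that 200 arrangements allow is 0.005. The difference for PTX thus passed the threshold only in the set that lacks WT control 3, the library with the lowest ratio of all 11.

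Among the α subunits *Gabra2* stood out by its spread. *Gabra2* (ENSMUSG00000000560), which encodes the α2 subunit, lies on the minus strand of chromosome 5 from 70957597 to 71095849. It was at 3.37, 11.42 and 4.1 FPKM in the WT controls, at 12.17, 3.79 and 8.19 FPKM in the WT PTX mice, at 4.41, 4.24 and 4.49 FPKM among the KO controls and at 8.5 and 4.36 FPKM after PTX in KO mice. In 7 libraries it was between 3.37 and 4.49 FPKM, in 4 libraries between 8.19 and 12.17 FPKM, and no library lay between. Higher and lower libraries occurred together in the WT control, WT PTX and KO PTX groups, while the 3 KO controls were all in the lower range. The coefficient of variation of *Gabra2* was 51.3%, larger than that of 96.5% of the tested genes. It was measured by 1476 to 8034 counts per library. Whether the mice carried the same strain's sequence at chromosome 5 is not given in the sources used here, and its part in the level and in the fold changes of *Gabra2* was not tested.

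*Gabra3* (ENSMUSG00000031343), which encodes the α3 subunit, lies on the minus strand of chromosome X from 72432681 to 72656848. It was at 3.05, 3.33 and 5.24 FPKM in the WT controls, at 3.47, 5.05 and 4.16 FPKM in the WT PTX mice, at 3.27, 3.32 and 4.88 FPKM among the KO controls and, in the KO PTX mice, at 4.41 and 5.77 FPKM. Replicate 3, labelled female, was the highest of its group in 3 of the 4 groups, and WT PTX 2, labelled male, was the highest in the fourth. A difference between the sexes was not tested.

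The γ1 subunit gene *Gabrg1* (ENSMUSG00000001260) is the neighbour of *Gabra2*, on the same strand of chromosome 5 from 70751047 to 70842617 and 115 kb away. It was at 2.05, 2.7 and 3.09 FPKM in the WT controls, at 3.34, 2.63 and 2.75 FPKM in the WT PTX mice, at 3.02, 2.85 and 3.55 FPKM among the KO controls and, in the KO PTX mice, at 2.88 and 2.98 FPKM. All 4 groups overlapped. The gap seen in *Gabra2* was not seen in *Gabrg1*. Over the 11 libraries the Pearson correlation of log2(FPKM + 1) between the 2 genes was 0.25 (Spearman 0.38). This is a description over libraries of unequal depth.

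*Gabrb2* (ENSMUSG00000007653), which encodes the β2 subunit, lies on the plus strand of chromosome 11 from 42419757 to 42629028 and was low in every library, with 37 to 153 counts per library. It was at 0.39, 0.07 and 0.15 FPKM in the WT controls, at 0.21, 0.15 and 0.22 FPKM in the WT PTX mice, at 0.14, 0.21 and 0.16 FPKM among the KO controls and, in the KO PTX mice, at 0.4 and 0.32 FPKM. The KO PTX mice lay above the KO controls without overlap, and WT control 1 lay as high as the KO PTX mice.

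By FPKM, the libraries with the most *Gabrb2* were the 4 with totals under 60000000 counts. In these 4, 7 of the 12 spinal cord markers were also higher, so that depth and these markers cannot be told apart. The counts of *Gabrb2* did not separate them, with 83 in WT PTX 3, 83 in WT PTX 2 and 118 in WT PTX 1. In the 4 libraries under 60000000 counts *Gabrb2* was at 0.22 to 0.4 FPKM and in the other 7 at 0.07 to 0.21 FPKM. *Gabra4*, which encodes the α4 subunit, was at 0.36 to 0.53 FPKM against 0.16 to 0.27 FPKM. The ranges of the low subunit genes *Gabrd* and *Gabrb1* overlapped. *Gabrd* was at 0.24 to 0.38 FPKM against 0.1 to 0.29 FPKM, and *Gabrb1* at 0.41 to 0.59 FPKM against 0.25 to 0.48 FPKM. The GABA-synthesizing enzyme gene *Gad1* was at 0.6 to 1.73 FPKM against 0.07 to 0.1 FPKM, and the vesicular GABA transporter gene *Slc32a1*, a marker of inhibitory neurons, was at 0.17 to 1.64 FPKM against 0 in all of the 7 others. The oligodendrocyte gene *Opalin* was likewise at 0 in those 7 and at 0.06 to 0.57 FPKM in the 4. Of the 12 spinal cord markers, *Aqp4*, *Slc6a5*, *Slc6a11*, *Slc17a7* and *Hapln2* had ranges that overlapped. Summed over the 12 spinal cord markers, the level was 30.8 to 38.1 FPKM in the WT controls, 34.0 to 39.7 FPKM in the WT PTX mice, 33.9 to 37.0 FPKM in the KO controls and 41.2 to 62.6 FPKM in the KO PTX mice, most of it from *Slc17a7*, which was at 28.1 to 34.6 FPKM in every library. The part of these transcripts and of library depth in the level of *Gabrb2* was not tested.

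**Figure D2:**
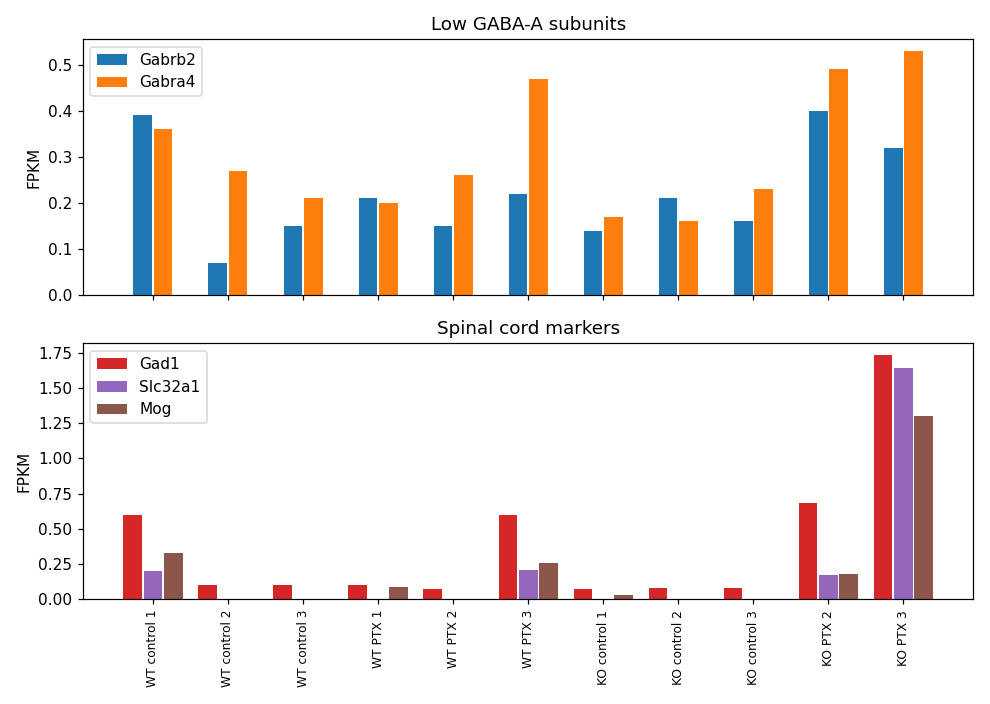
FPKM on the vertical axes for each of the 11 libraries, with *Gabrb2* and *Gabra4* in the upper panel and the spinal cord markers *Gad1*, *Slc32a1* and *Mog* in the lower panel. WT control 1, WT PTX 3 and both KO PTX libraries carry the high marker bars and, at 0.22 to 0.4 FPKM, the highest *Gabrb2* bars.

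In WT mice none of the 5 tested receptor genes passed the threshold after PTX. The quasi-likelihood test of edgeR, after Benjamini-Hochberg adjustment, called 0 of the 5 genes against 0.00663% of all tested genes. At an unadjusted p under 0.05 it called 0 of the 5 against 13.5% of all tested genes, and DESeq2 called 0 of the 5 and 309 of all 15087. All 5 estimates were positive, with a median log2 fold change of 0.17 against -0.01 for all tested genes. The sum of the macrophage markers differed in the same comparison, and skeletal muscle markers varied widely between mice. The 8 macrophage markers, none of them at 0, summed to 34.2 to 44.9 FPKM in the WT controls. In the WT PTX mice the sum was 24.1 to 29.3 FPKM, without overlap, and in the KO mice 26.4 to 33.9 FPKM. Taken singly, *Cd68* and *C1qa* overlapped between the WT groups and the other listed macrophage markers did not. Of all tested genes, 14.2% had WT groups without overlap. The 9 skeletal muscle markers, none at 0, summed to 58.3 to 646 FPKM in the WT controls. In the WT PTX mice they summed to 52.9 to 247 FPKM, with overlap. Their sum was 171 to 687 FPKM in the KO controls and 126 to 154 FPKM in the KO PTX mice. The list includes *Pvalb*, also listed among the sensory neuron markers. *Pvalb* made up most of the lowest sums, at 42.5 FPKM in WT control 2 and 49.5 FPKM in WT PTX 3. *Acta1*, of the same list, was at 5.28 FPKM and 0.84 FPKM there and reached 206 FPKM in KO control 2. The part of the muscle and macrophage markers was not tested. The log2 fold change was 0.03 for *Gabbr1* (95% interval -0.12 to 0.17) and 0.17 for *Gabbr2* (SE 0.08, 95% interval -0.01 to 0.35, edgeR adjusted p = 0.389). For *Gabra3* it was 0.17 (95% interval -0.20 to 0.54) and for *Gabrg1* 0.16 (95% interval -0.14 to 0.46). These estimates moved with single libraries: *Gabbr2* was at 0.09 and *Gabrg1* at 0.03 without WT control 1, *Gabrg1* was at 0.02 without WT PTX 1, and *Gabra3* was at -0.07 without WT PTX 2. The intervals of the GABA-B genes were narrow, so that a 2-fold change of either lay outside them.

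The estimate of *Gabra2* in WT mice was 0.40 with a 95% interval of -0.65 to 1.46, wider than those of the other 4 tested genes. Leaving out WT control 2 raised it to 1.08 and leaving out WT PTX 1 lowered it to 0.03, on the log2 scale. With any single library left out it stayed positive, between 0.03 and 1.08. Without both WT control 1 and WT PTX 3, the WT libraries with more spinal cord markers and lower totals, it was -0.19. That joint removal was chosen after the data were seen. The size of the estimate for *Gabra2* thus rested on which libraries were kept, and its direction turned with the joint removal. By FPKM, 0 of the 5 genes had groups without overlap, against 14.2% of all tested genes.

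In KO mice PTX gave the same count, 0 of the 5 genes against 0.00663% of all tested genes in edgeR's test. At an unadjusted p under 0.05 it was 0 of the 5 against 4.32% of all tested genes, and DESeq2 called 0 of the 5 and 29 of all 15087. *Gabbr1* and *Gabbr2* were the 2 of 5 genes whose KO PTX values lay above the KO controls without overlap, where 21.6% of all tested genes had groups without overlap in either direction. Their log2 fold changes were 0.13 (SE 0.07, 95% interval -0.03 to 0.30, edgeR adjusted p = 0.999) and 0.13 (95% interval -0.08 to 0.33). *Gabra3* had a log2 fold change of 0.35 (95% interval -0.06 to 0.76), *Gabra2* 0.55 (95% interval -0.61 to 1.72) and *Gabrg1* -0.12 (95% interval -0.46 to 0.22). *Gabrb2*, from a fit without the filter on low values, had a log2 fold change of 1.08 (95% interval -0.04 to 2.20, edgeR adjusted p = 1). Both KO PTX libraries are among those with totals under 60000000 counts and more spinal cord markers. In KO mice PTX, depth and these markers therefore cannot be told apart.

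The comparison of KO with WT controls likewise called 0 of the 5 genes against 0.00663% of all tested genes in edgeR's test. At an unadjusted p under 0.05 it was 0 of the 5 against 7.54% of all tested genes, and DESeq2 called 0 of the 5 and 42 of all 15087. No gene had groups without overlap, against 9.28% of all tested genes. The log2 fold change was 0.02 for *Gabbr1* (95% interval -0.13 to 0.16), 0.12 for *Gabbr2* (95% interval -0.06 to 0.30), -0.01 for *Gabra3* (95% interval -0.38 to 0.36) and 0.27 for *Gabrg1* (95% interval -0.03 to 0.57). *Gabra2* was at -0.48 (95% interval -1.53 to 0.58) and turned to 0.20 without WT control 2. That library alone thus set the sign for *Gabra2*.

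Between KO and WT mice after PTX, edgeR's test called 0 of the 5 against 0.0133% of all tested genes. At an unadjusted p under 0.05 it was 0 of the 5 against 3.55% of all tested genes, and DESeq2 called 0 of the 5 and 10 of all 15087. *Gabbr1* was the 1 of 5 genes without overlap, against 20.2% of all tested genes, with a log2 fold change of 0.12 (95% interval -0.04 to 0.28). *Gabbr2* had 0.08, *Gabra3* 0.17, *Gabrg1* -0.02 and *Gabra2* -0.32 (95% interval -1.51 to 0.86). The 2 comparisons with PTX in KO mice share the KO PTX libraries, and those with the WT PTX mice or the controls share these, so that their estimates are not independent. For the difference of the PTX effect between the genotypes, 0 of 5 genes were called against 0.00663% of all tested genes, at log2 differences of 0.11 for *Gabbr1*, -0.04 for *Gabbr2*, 0.15 for *Gabra2*, 0.18 for *Gabra3* and -0.28 for *Gabrg1*. Averaged over treatments or genotypes, 0 of 5 genes were called against 0.0133% of all tested genes in either average. At an unadjusted p under 0.05, 1 of the 5 genes passed for PTX averaged over genotypes, against 9.36% of all tested genes. It was *Gabbr2*, with a log2 fold change of 0.15 (95% interval 0.01 to 0.28, edgeR adjusted p = 0.506). For the genotype averaged over treatments it was 0 of the 5 against 3.75% of all tested genes, and for the difference between genotypes 0 of the 5 against 6.3%.

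**Figure D3:**
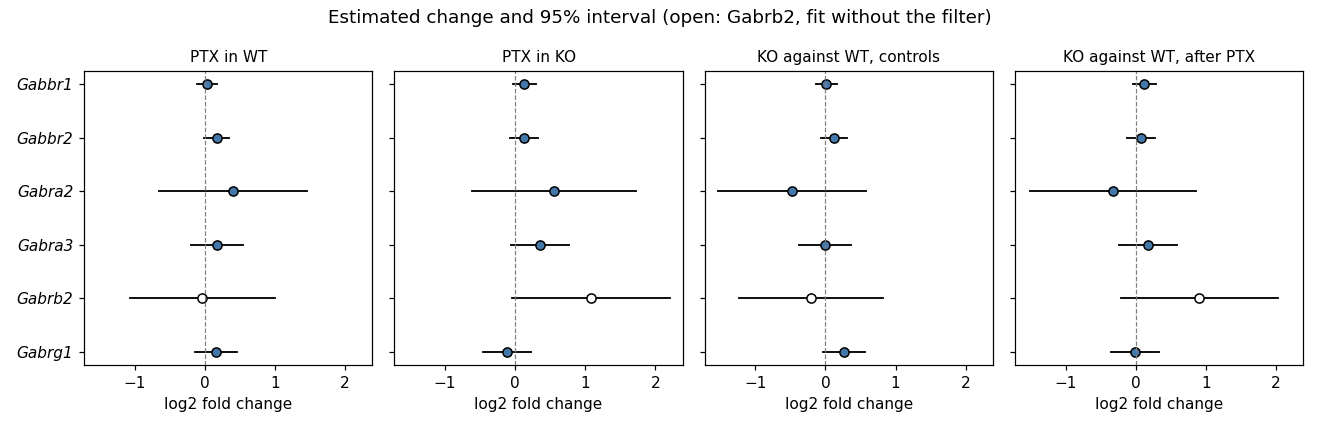
Estimated log2 fold change on the horizontal axis with its 95% interval for each receptor gene in 4 comparisons, from edgeR, with the open circles for *Gabrb2* from the fit without the filter. The intervals of *Gabbr1* and *Gabbr2* are the shortest, those of *Gabra2* and *Gabrb2* the longest, and each of the intervals shown includes 0.

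The related genes of the pathway were read from lists of subunits, partners and transporters. Of 19 GABA-A subunit genes 7 were tested, and 0 passed in any comparison of edgeR's test. Of all tested genes 0.00663% to 0.0133% passed, so that 0 called in this list or those below is near that share. For PTX in WT mice, 6 of the 7 had positive estimates, with a median log2 fold change of 0.21 against -0.01 for all tested genes. In KO mice 5 of the 7 estimates for PTX were positive, with a median of 0.11. Between KO and WT controls 4 of the 7 were positive, with a median of 0.15, and after PTX 3 of the 7, with a median of -0.02. *Gabra6*, a subunit of cerebellar granule cells, was listed at 0 in all 11 libraries.

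Of the 8 GABA-B subunits and associated proteins 7 were tested, with 0 called in edgeR's test, against 0.00663% to 0.0133% of all tested genes. Their median log2 fold change was 0.01 for PTX in WT mice. *Kctd8*, an auxiliary subunit that shapes GABA-B responses, was at a mean of 15.6 FPKM over all libraries and changed by 0.15 (95% interval -0.08 to 0.37) after PTX in WT mice. Of the 10 effectors, 7 were tested and 0 called. They include the abundant Gi/o genes *Gnao1*, *Gnai2*, *Gnai1* and *Gnai3* with means of 79.9, 66.6, 39.6 and 25 FPKM, and the N-type calcium channel gene *Cacna1b* with 11.2 FPKM. *Kcnj3*, which encodes the potassium channel subunit GIRK1 opened by GABA-B receptors, was at 4.46, 3.93 and 6.0 FPKM in the WT controls and at 6.31, 6.11 and 7.03 FPKM in the WT PTX mice. Its log2 fold change was 0.44 (95% interval 0.22 to 0.67, edgeR adjusted p = 0.207), and DESeq2 called it (adjusted p = 0.00895).

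All 16 genes of GABA-A anchoring and trafficking were tested, and 0 passed in edgeR's test, against 0.00663% to 0.0133% of all tested genes. The most abundant were *Gabarapl1* at 332.7 FPKM, *Gabarap* at 97.2 FPKM, *Gabarapl2* at 86.5 FPKM and *Lhfpl4* at 73.1 FPKM on average. LHFPL4 holds GABA-A receptors at inhibitory synapses. *Nlgn2*, a synaptic adhesion molecule of inhibitory synapses, changed by -0.30 (95% interval -0.48 to -0.12) after PTX in WT mice (edgeR adjusted p = 0.238), and DESeq2 called it (adjusted p = 0.0376). Of the 9 genes of GABA synthesis, transport and breakdown 6 were tested and 0 called. *Abat*, which encodes the GABA-degrading transaminase, led with 11.5 FPKM, while *Gad1* had a mean of 0.383 FPKM, below the filter. Of the 8 genes of chloride cotransporters and their kinases 7 were tested and 0 called. The chloride importer gene *Slc12a2* (NKCC1) was at 9.19 to 12.9 FPKM in the 11 libraries, and the exporter gene *Slc12a5* (KCC2), below the filter on average, was at 0.41 to 2.13 FPKM in the 4 libraries under 60000000 counts and at 0.1 to 0.17 FPKM in the other 7. Over the 6 lists the median log2 fold change for PTX in WT mice ran from -0.01 to 0.21, against -0.01 for all tested genes.

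The genes whose levels followed each receptor gene most closely over the 11 libraries were listed by the Pearson correlation of log2(FPKM + 1). This is a description over libraries of 4 groups and unequal depth. For *Gabbr1* they were *Odf2*, *Dazap2* and *L1cam* (0.96, 0.95 and 0.94), and for *Gabbr2* *Fnbp4*, *Ebf1* and *Ncor1* (0.97, 0.97 and 0.97). For *Gabra3* they were *Camk2b*, *6330403L08Rik* and *Chrnb4* (0.95, 0.94 and 0.94), for *Gabrg1* *Trpm7*, *Morc3* and *Senp7* (0.95, 0.91 and 0.91), and for *Gabrb2* *Pfdn5*, *Lsm2* and *Polr2j* (0.92, 0.91 and 0.91). Among the receptor genes the closest pair was *Gabbr1* and *Gabbr2* at 0.78 (Spearman 0.55).

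The genes closest to *Gabra2* were of another kind. They were *Gm9625* (0.97), *Atp10d* (0.96) and *Gm8730* (0.96), of which *Gm9625* and *Gm8730* are annotated as processed pseudogenes on chromosomes 13 and 8, so that their levels are uncertain where reads fit several copies. *Atp10d*, annotated as a polymorphic pseudogene, lies on chromosome 5 at a distance of 1.25 Mb from *Gabra2*. It was at 2.35 FPKM in WT control 2, 1.63 FPKM in WT PTX 1, 1.15 FPKM in KO PTX 2 and 1.11 FPKM in WT PTX 3, and between 0.4 and 0.54 FPKM in the other 7 libraries. These are the same 4 libraries in which *Gabra2* was between 8.19 and 12.17 FPKM. The ribosomal stalk gene *Rplp0*, also on chromosome 5, ran the opposite way (r = -0.98). In those 4 libraries, in the same order, it was at 90.1, 77.7, 116 and 103 FPKM. The others held 140.8 to 195 FPKM of it. Whether reads of *Rplp0* were told apart from those of *Gm9625* and *Gm8730* was not tested, so its level is uncertain too.

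**Figure D4:**
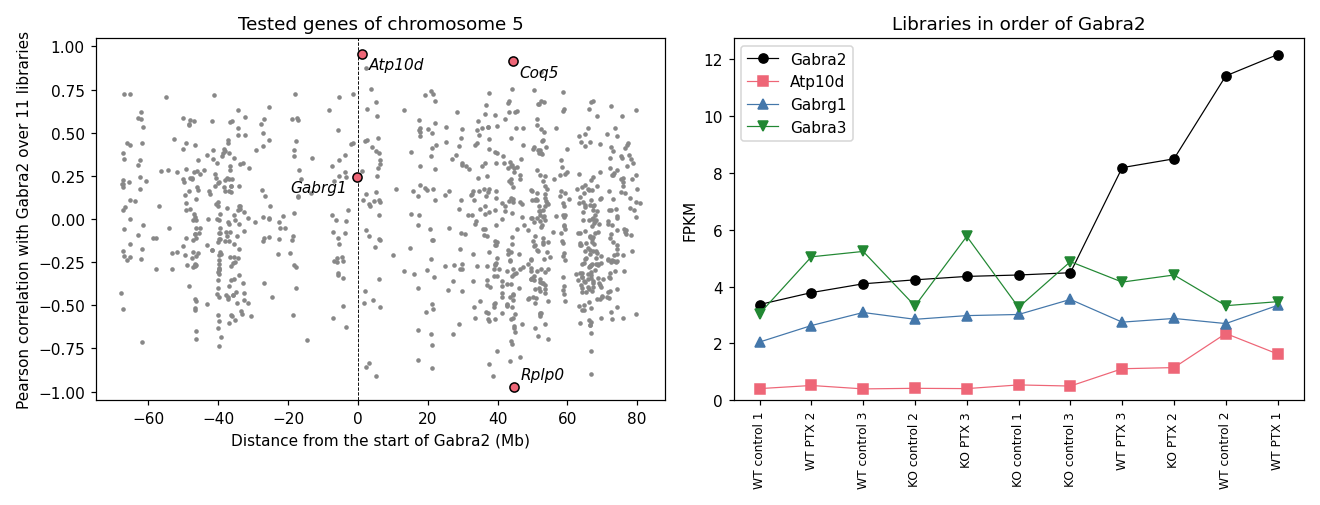
Left, Pearson correlation with *Gabra2* over 11 libraries on the vertical axis for the tested genes of chromosome 5, against the distance from the start of *Gabra2* in Mb on the horizontal axis. Right, FPKM of *Gabra2*, *Atp10d*, *Gabrg1* and *Gabra3* with the libraries in order of *Gabra2*; *Atp10d* reaches at least 1.11 FPKM in the 4 libraries with the most *Gabra2* and stays at 0.54 FPKM or less in the others, and *Gabrg1* shows no such step.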

How the data were processed

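DRG libraries of 11 mice were prepared by a strand-specific poly(A) protocol. The authors deposited a single table with FPKM values, normalized for transcript length and library size, and with counts that are not normalized. The submitters' processing notes name FastQC, cutadapt, HISAT2, StringTie and the build mm10 without versions. The deposited counts are whole numbers but were treated as estimated counts, and they came to 52735648 to 80348732 per library, which left *Gabrb2*, at a mean of 0.22 FPKM, with 37 to 153 counts. Groups, sex and replicate numbers were taken from the labels, and the descriptions' numbers 2 and 3 were used for the KO PTX mice, whose titles say 1 and 2.

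Differences in counts were fitted in edgeR 4.0.16 under R 4.3.3 (TMM, quasi-likelihood test, labelled sex as covariate, all 11 libraries in 1 fit), over 15087 genes whose mean FPKM reached 0.5, with Benjamini-Hochberg adjusted p under 0.05 as the threshold and 95% intervals. Standard errors were obtained from the log2 fold change and the F statistic. The ratio of *Gabbr1* to *Gabbr2* was tested by exact permutation within strata. Alternatives were DESeq2 1.42.0, RLE size factors, no filter, no sex covariate, the replicate number as a block, limma 3.58.1 on log2(FPKM + 1) and log2(FPKM + 0.1), and each library left out. The removal of WT control 1 with WT PTX 3 was chosen after seeing the data. The fit was tested on simulated data. Figures and tables used Python 3.11.15, numpy 2.4.6, pandas 2.3.3 and matplotlib 3.10.9.

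Named genes were the 6 receptor genes, genes of the pathway lists with a mean over 10 FPKM or a call (some list members are not reported here), 3 genes per receptor gene with the highest correlation over libraries, and *Gpr37l1*. The members and lists were chosen with earlier results of these data known. *Gabra4*, *Gabrb1*, *Gabrd*, *Slc12a5*, *Gad1*, *Kcnj3*, *Pvalb*, *Acta1*, *Cd68*, *C1qa* and the genes of chromosome 5 were named after their values were seen. Coordinates are as deposited. In GENCODE release M21, 18 of 21 GABA receptor genes had the same ones.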

Additional observations from a re-analysis of the deposited data

How the results depend on the processing

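No receptor gene was called under any of the 640 alternatives of the 35 gene changes, with a lowest adjusted p of 0.296. Of these alternatives 612 kept the direction of the estimate and 28 turned it, each on an estimate that was not called. Leaving out WT control 1 and WT PTX 3 together turned PTX in WT to -0.041 for *Gabbr1* and -0.191 for *Gabra2*, and KO against WT controls to -0.018 for *Gabbr1*. Without the filter *Gabra3* moved to 0.006 for KO against WT controls, and without the sex covariate *Gabrg1* moved to 0.012 for KO against WT after PTX. With each library left out in turn, PTX in WT ran from -0.015 to 0.082 for *Gabbr1*, 0.089 to 0.226 for *Gabbr2*, 0.027 to 1.081 for *Gabra2*, -0.067 to 0.337 for *Gabra3* and 0.02 to 0.258 for *Gabrg1*. PTX in KO ran from 0.084 to 0.202 for *Gabbr1*, 0.053 to 0.196 for *Gabbr2* and 0.162 to 0.866 for *Gabra2*. KO against WT controls ran from -0.025 to 0.069 for *Gabbr1*, 0.039 to 0.186 for *Gabbr2*, 0.14 to 0.366 for *Gabrg1*, -0.787 to 0.204 for *Gabra2* and -0.086 to 0.129 for *Gabra3*. KO against WT after PTX ran from -0.716 to 0.025 for *Gabra2*, -0.012 to 0.401 for *Gabra3* and -0.122 to 0.121 for *Gabrg1*. The difference of the PTX effect ran from -0.117 to 0.048 for *Gabbr2* and -0.529 to 0.525 for *Gabra2*. The averaged genotype effect ran from -0.012 to 0.197 for *Gabra3* and the averaged PTX effect from -0.053 to 0.074 for *Gabrg1*. The log2 ratio of *Gabbr1* to *Gabbr2* for PTX ran from -0.1203 to -0.0408. The causes were not tested.

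Over all genes DESeq2 called 309 for PTX in WT, 42 for KO against WT controls, 29 for PTX in KO, 10 for KO against WT after PTX, 12 for the difference of the PTX effect, 28 for the genotype average and 125 for the PTX average, against 1, 1, 1, 2, 1, 2 and 2 with edgeR. For PTX in WT, 2 genes were called without the filter, and 0 without the sex covariate, with either limma fit or without WT control 1 and WT PTX 3. Without these 2 libraries 2 genes were called for KO against WT controls. For the PTX average, 1 was called without the sex covariate, 0 with limma on log2(FPKM + 1) and 1 with log2(FPKM + 0.1). With single libraries left out, the counts ran from 0 to 30, 1 to 4, 1 to 7, 2 to 7, 1 to 6, 2 to 5 and 1 to 18 in the order of the DESeq2 counts.

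Same-numbered libraries correlated at -0.164 to 0.253 in their deviations from group means (15 pairs), so the numbers were not taken to pair the mice. With the replicate block in place of sex, 0 receptor genes and 1, 1, 1, 2, 1, 2 and 2 genes in all were called in the same order. With same-numbered libraries paired, the log2 ratio differed by -0.0876 for PTX (exact p = 0.312) and by -0.0571 for KO (exact p = 0.438).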

Other observations

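The genes that followed *Gabra2* over the 11 libraries were unevenly spread over the chromosomes. A Pearson correlation of at least 0.85 in either direction, a limit chosen after the values were seen, was found for 10 of the other 962 tested genes of chromosome 5 (1.04%) and for 16 of the 14124 tested genes of all other chromosomes (0.113%). Of the 10 genes, 4 ran with *Gabra2*, among them *Atp10d* and *Coq5*, an enzyme gene of coenzyme Q synthesis. The other 6 ran against it, among them *Rplp0*, *Crlf2*, *Irs3* and *Srd5a3*, a reductase gene of dolichol synthesis. *Coq5* was at 11.2 FPKM in WT control 2, 10.7 FPKM in WT PTX 1, 9.13 FPKM in WT PTX 3 and 8.25 FPKM in KO PTX 2, and between 7.09 and 8.19 FPKM in the other 7 libraries. *Srd5a3* was at 4.48, 5.0, 6.02 and 5.94 FPKM in the same 4 libraries and between 6.23 and 7.18 FPKM in the others. The libraries were of unequal depth, and these values are a description with no test.

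*Gm8730*, the processed pseudogene on chromosome 8, spanned 3.37 to 117.24 FPKM over the libraries. It was at 117.24 FPKM in WT control 2, 100.84 FPKM in WT PTX 1, 53.14 FPKM in WT PTX 3 and 51.16 FPKM in KO PTX 2, and at 8.61 FPKM or less in the other 7 libraries. The 4 libraries named here are those with the highest *Gabra2*, in another order.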
